A study of Mus musculus with 6 samples.

Results

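The Src family kinases and the enzymes that set their activity were examined in mouse macrophages, wild type (WT) or lacking progranulin (PGRN KO). Progranulin is a secreted glycoprotein encoded by Grn. The genes were chosen by symbol: the kinases Src, Lyn, Fgr, Fyn and Yes1, the kinase Csk, the phosphatases Ptprc and Ptpn6, and the ubiquitin ligase Cblb. All 9 were present among the 54532 genes of the deposited table, and 8 of them had a mean of at least 1 FPKM over the 6 libraries and entered the tests. FPKM are fragment counts divided by gene model length and by library size, which puts genes of different length and libraries of different depth on a common scale. Comparisons between libraries still depend on how the libraries are scaled, as described below.

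Libraries of 3 WT samples (replicates 1, 2 and 3) and 3 PGRN KO samples (replicates 4, 5 and 6) were compared. PGRN KO mice were on the C57BL/6 background and were matched with WT mice for sex and age, and no age is tied to the sequenced macrophages in the sources used here. In both genotypes, macrophages that the labels place in the peritoneal cavity were seeded in wells of 2000000 cells and exposed to live Candida albicans, 1 fungal cell per macrophage, for 6 hours. The text of the study calls the sequenced cells bone marrow-derived macrophages and gives a different dose of the fungus, and the labels were followed. Every library came from challenged cells, so that genotypes were compared in the presence of the fungus and without a baseline. No source used here states that the libraries came from separate mice, and the p-values then measure only the spread between these samples, which may be technical.

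Src family kinases are membrane-anchored tyrosine kinases that act at the start of signalling from many receptors of immune cells. In macrophages they phosphorylate the activation motifs through which fungal pattern receptors and Fc receptors recruit the kinase Syk, and also the inhibitory motifs through which other receptors recruit phosphatases. Their own activity is set by a tyrosine near the end of the protein. When Csk phosphorylates this residue the tail folds back onto the kinase and keeps it inactive, and when Ptprc, the transmembrane phosphatase also called CD45, removes the phosphate the kinase can open. These are events on proteins, and the data described here are levels of polyadenylated transcripts.

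The coding sequence of this tail is shown because it is the part of the kinases on which Csk and Ptprc act. For each gene the last 42 coding bases, stop codon included, were read 5′ to 3′ on the coding strand of GRCm38, and the last tyrosine codon in frame is in capitals. In every one of these genes the 42 bases lie within 1 coding exon, the last of the transcript read. Lck and Blk, which are described below, are shown for comparison.
Src, chr2:157469920-157469961: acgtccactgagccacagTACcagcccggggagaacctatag
Fyn, chr10:39563931-39563972: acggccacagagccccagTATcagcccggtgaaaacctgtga
Fgr, chr4:133000302-133000343: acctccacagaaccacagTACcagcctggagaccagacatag
Yes1, chr5:32684718-32684759: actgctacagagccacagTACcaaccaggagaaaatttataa
Lyn, chr4:3789903-3789944: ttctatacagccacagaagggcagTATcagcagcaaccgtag
Lck, chr4:129548798-129548839: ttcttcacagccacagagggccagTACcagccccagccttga
Blk, chr14:63373392-63373433: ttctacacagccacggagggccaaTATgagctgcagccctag

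These 7 tails fall into 2 forms by the distance from this codon to the stop codon. In Src, Fyn, Fgr and Yes1 the tyrosine codon is followed by 6 codons before the stop, and over the 42 bases Fyn has 33, Fgr 32 and Yes1 31 bases in common with Src. In Lyn, Lck and Blk it is followed by 4 codons. Lyn, the most abundant of the member kinases in these cells, thus has the shorter end.

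The libraries held 15996786 to 17551619 counted fragments. Grn was measured at 324, 337 and 325 FPKM in WT and at 0.0166, 0 and 0.0167 FPKM in PGRN KO, so that the labels matched the deleted gene. PGRN KO replicate 6 stood apart from replicates 4 and 5 on the first principal component (61.7% of the variance), at 34.5 against 13.7 and 11.1. On the second (22.5%) it was at 19.2 against -17.6 and -14.9. The limma quality weight of replicate 6 was 0.0899, against 1.07 to 3.79 for the other libraries. The fold changes of the tested members are therefore given with and without this library. Of 12 macrophage markers 11 were tested, of which Mertk and Icam2 passed as higher and Csf1r as lower. This was 27.3%, against 24.2% of all tested genes. Without PGRN KO replicate 6, 7 passed, 2 as higher and 5 as lower, or 63.6% against 41.3% of all tested genes. The summed level of the 12 markers, mostly Lyz2 and Cd14, was 11670 to 12610 FPKM in the WT libraries. It was 10760, 10480 and 14430 FPKM in PGRN KO replicates 4, 5 and 6. Among markers of resident peritoneal macrophages, Gata6 was at 3.78 to 5.07 FPKM and Icam2 at 2.94 to 5.43 FPKM over all libraries, and Timd4 was at 0 to 0.204 FPKM.

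Among the members, the phosphatase Ptpn6 was the only one whose transcripts passed the limma test over all 6 libraries, with a fitted level 1.415-fold higher in PGRN KO (95% interval 1.12 to 1.78). Src was lower by 0.30 on the log2 scale with separate groups and missed the threshold. The groups overlapped for Lyn, Fyn, Fgr, Csk, Ptprc and Cblb, none of which passed, and Yes1 was barely detected. In numbers, 1 of 8 tested members passed an adjusted p of 0.05 in limma, or 12.5%, against 24.2% of all 8882 tested genes. Among all tested genes 10.4% passed as higher and 13.8% as lower in PGRN KO. The median size of the log2 fold change was 0.11 over the tested members and 0.25 over all tested genes, and for 7 of the 8 members the 95% interval of the difference lay within 1.5-fold in either direction. Without PGRN KO replicate 6 the count was again 1 of 8, Ptpn6, against 41.3% of all tested genes.

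**Figure D1:**
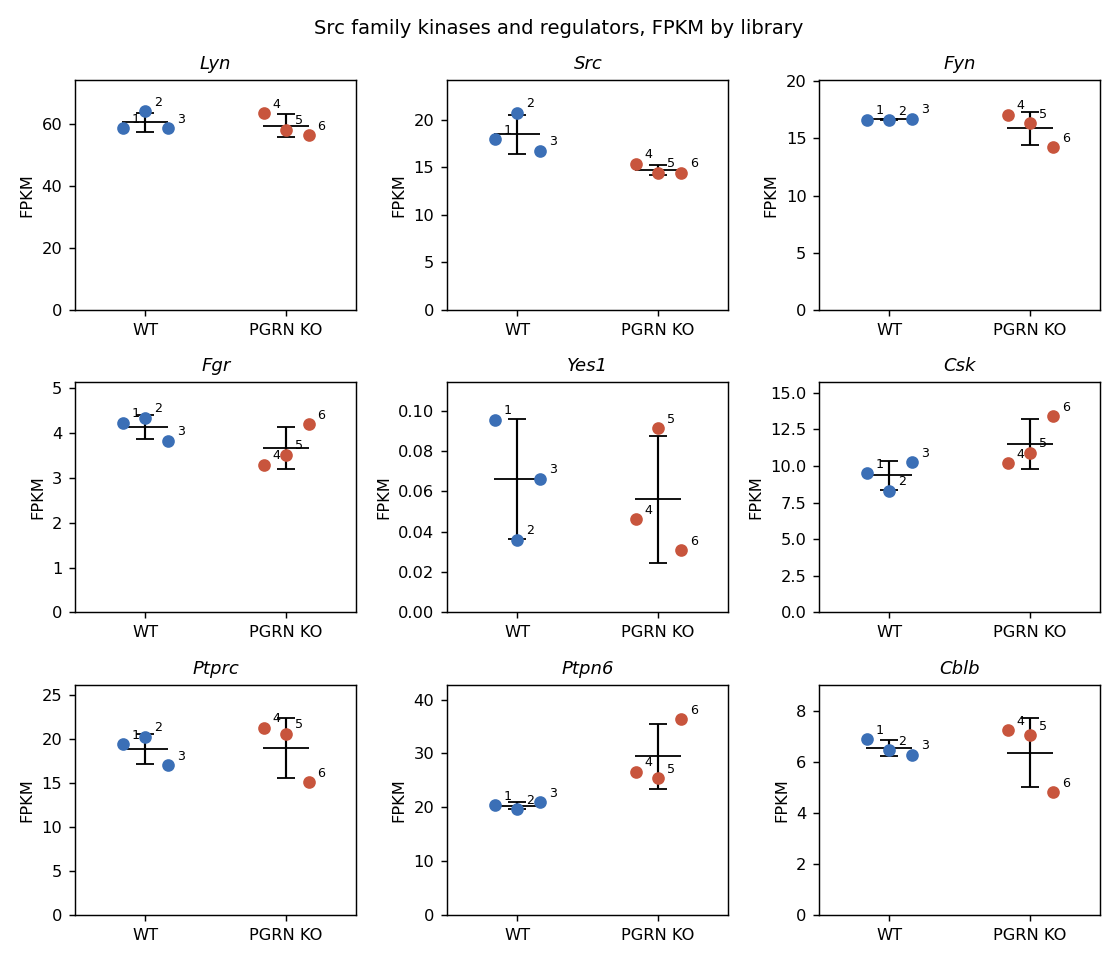
Level of each member in FPKM (vertical axis, linear, from 0, with its own scale in each panel) in the 3 WT and the 3 PGRN KO libraries; each point is a library with its replicate number, horizontal lines are group means and bars are SD (n = 3). The groups are separate for Ptpn6 (19.59 to 20.91 against 25.43 to 36.36 FPKM) and Src (16.77 to 20.74 against 14.44 to 15.39 FPKM) and overlap for the other 7 genes.

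The members spanned a wide range of levels. Lyn was the most abundant, with 59.9 FPKM over the 6 libraries, and was followed by Ptpn6 with 24.9, Ptprc with 18.9, Src with 16.6, Fyn with 16.3, Csk with 10.4, Cblb with 6.47 and Fgr with 3.90 FPKM. Yes1 came last with 0.0611 FPKM. Neighbours in this order overlapped in their ranges between Ptpn6 and Ptprc, Ptprc and Src, and Src and Fyn, whereas the other neighbours were ordered the same way in all 6 libraries without overlap. Src exceeded Fyn in all 3 WT libraries and in PGRN KO replicate 6 and was below it in PGRN KO replicates 4 and 5. The means of Src and Fyn were 18.5 and 16.7 FPKM in WT and 14.8 and 15.9 FPKM in PGRN KO.

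Lyn (ENSMUSG00000042228, chromosome 4, 3678115 to 3813122) is the kinase of the family that acts in both activating and inhibitory pathways of myeloid cells. WT replicates 1 to 3 had 58.64, 64.16 and 58.63 FPKM, and PGRN KO replicates 4 to 6 had 63.54, 58.21 and 56.40 FPKM. The groups overlapped over most of their range. The means were 60.5 ± 3.19 and 59.4 ± 3.71 FPKM (SD, n = 3 each), and the difference on the log2 scale was -0.03 ± 0.09 (SE, 95% interval -0.24 to 0.19) with a limma adjusted p of 0.852. Without PGRN KO replicate 6 it was 0.01. Of the 31-base words in Lyn transcripts, 22.8% also occur in other genes, most in Gm11787, which was counted at 0.129 to 0.495 FPKM, and Lyn shares exon positions with Gm26857 on the opposite strand, at 0.182 to 0.465 FPKM.

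Src (ENSMUSG00000027646, chromosome 2, 157418444 to 157471862) is the founding member of the family and is expressed in most tissues. Its level was 17.94, 20.74 and 16.77 FPKM in WT and 15.39, 14.44 and 14.44 FPKM in PGRN KO. Every PGRN KO library was below every WT library, and the WT libraries were the more dispersed. The means were 18.5 ± 2.04 and 14.8 ± 0.547 FPKM, with a log2 fold change of -0.30 ± 0.10 (SE, 95% interval -0.54 to -0.06). The limma p was 0.0204 before and 0.0706 after adjustment over all genes, and the exact permutation p (two-sided) was 0.1, the smallest that 3 against 3 allows. Without PGRN KO replicate 6 the log2 fold change was -0.29, with an adjusted p of 0.0531. Groups without overlap were found in 2 of the 9 members, Src and Ptpn6, against 48.8% of all tested genes, 27.6% with lower and 21.2% with higher values in PGRN KO. The direction for Src was the same in all 19 alternative settings, and it passed in 2 of them, with an adjusted p of 0.0220 under sample quality weights and 0.0492 after a correction for gene length.

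Fyn (ENSMUSG00000019843, chromosome 10, 39368855 to 39565381), a broadly expressed kinase best known from T cell receptor signalling, was at 16.64, 16.60 and 16.73 FPKM in WT and at 17.05, 16.34 and 14.23 FPKM in PGRN KO. The WT libraries were nearly equal, PGRN KO replicate 4 was above and replicates 5 and 6 were below all of them, and replicate 6 was the furthest away. On the log2 scale the difference was -0.07 ± 0.09 (SE, 95% interval -0.29 to 0.15) with a limma adjusted p of 0.615. Without replicate 6 it was 0.003, with an adjusted p of 0.971.

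Fgr (ENSMUSG00000028874, chromosome 4, 132974095 to 133001910) is a kinase of myeloid cells and was the least abundant of the tested members. It was at 4.224, 4.341 and 3.830 FPKM in WT and at 3.288, 3.514 and 4.194 FPKM in PGRN KO. PGRN KO replicates 4 and 5 were below all WT libraries, whereas replicate 6 was among them. Genotypes differed by -0.14 ± 0.11 on the log2 scale (SE, 95% interval -0.39 to 0.11) with a limma adjusted p of 0.358. Without replicate 6 it was -0.22 with an adjusted p of 0.0580, and with quality weights, which give replicate 6 little influence, it was -0.23 with an adjusted p of 0.0219.

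Yes1 (ENSMUSG00000014932, chromosome 5, 32611171 to 32687057), a close relative of Src that is expressed in many tissues, was barely detected. It received 12, 4 and 9 fragments in WT and 6, 13 and 4 fragments in PGRN KO. Summed over libraries these were 25 fragments in WT (exact Poisson 95% interval 16.2 to 36.9) and 23 in PGRN KO (14.6 to 34.5), intervals that cover counting error only. A difference was not detectable at this depth.

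Csk (ENSMUSG00000032312, chromosome 9, 57626646 to 57653631) phosphorylates the tail tyrosine shown above and thereby holds the kinases inactive. It was at 9.50, 8.32 and 10.28 FPKM in WT and at 10.18, 10.90 and 13.42 FPKM in PGRN KO. PGRN KO replicates 5 and 6 were above all WT libraries, and replicate 4 was just below WT replicate 3. The means were 9.37 ± 0.984 and 11.5 ± 1.70 FPKM, with a log2 fold change of 0.27 ± 0.13 (SE, 95% interval -0.04 to 0.57) and a limma adjusted p of 0.167. It passed in 0 of 19 alternatives, with adjusted p between 0.103 and 0.418, and without replicate 6 the log2 fold change was 0.16. At an unadjusted p under 0.05 the members were Ptpn6 and Src, 2 of 8, against 39.1% of all tested genes.

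Ptprc (ENSMUSG00000026395, chromosome 1, 138062861 to 138175708), which removes the phosphate that Csk adds, was at 19.41, 20.26 and 17.00 FPKM in WT and at 21.28, 20.64 and 15.07 FPKM in PGRN KO. Of the PGRN KO libraries, replicates 4 and 5 were above all WT libraries and replicate 6 below all of them. The log2 fold change was -0.00 ± 0.15 (SE, 95% interval -0.35 to 0.34) with a limma adjusted p of 0.987, and it was 0.15 with an adjusted p of 0.201 without replicate 6.

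Ptpn6 (ENSMUSG00000004266, chromosome 6, 124720707 to 124738714) encodes SHP-1, a cytosolic phosphatase of blood cells that binds to inhibitory receptors once Src family kinases have phosphorylated them. It was at 20.35, 19.59 and 20.91 FPKM in WT and at 26.62, 25.43 and 36.36 FPKM in PGRN KO, or 812 to 1057 against 1292 to 1761 fragments. Every PGRN KO library was above every WT library, and replicate 6 was well above replicates 4 and 5. The means were 20.3 ± 0.659 and 29.5 ± 6.00 FPKM. The log2 fold change was 0.50 ± 0.14 (SE, 95% interval 0.17 to 0.84) with a limma adjusted p of 0.0428, and the exact two-sided permutation p was 0.1. Without replicate 6 the difference was smaller, 0.34, and its adjusted p was 0.00482. The direction was the same in all 19 alternatives, and the threshold was met in 14. It was missed without a filter on low values (adjusted p 0.104) and without WT replicate 1 (0.133), WT replicate 2 (0.140), WT replicate 3 (0.110) or PGRN KO replicate 4 (0.0634). Gm20531, which overlaps exons of Ptpn6 on the opposite strand and is the gene most often found among the 5.78% of its 31-base words that occur elsewhere, was at 0 to 0.168 FPKM.

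Ptpn6 is expressed in many blood cells, and markers of other cell types were therefore read in the same libraries. The summed level of 6 B cell markers was 1.51 to 2.51 FPKM in WT libraries and 6.76 to 9.0 FPKM in PGRN KO libraries. Cd79a and Cd79b, the only ones tested, both passed as higher, as did 10.4% of all tested genes. The limit for testing is a mean over both genotypes, so genes low in WT could enter through their PGRN KO values. In WT, Cd79b was at 0.376 to 0.813 FPKM and Cd79a at 0.697, 1.35 and 0.837 FPKM. No conclusion is drawn from these calls. The sum of 7 mast cell markers was 2.29 to 3.19 against 9.72 to 13.99 FPKM, with Ms4a2 at 0 in all libraries. Cma1, Tpsb2, Cpa3, Mcpt4 and Fcer1a were higher in every PGRN KO library, whereas Kit overlapped, at 0.218 to 0.423 against 0.130 to 0.343 FPKM. Over all tested genes the groups were separate in 48.8%, 21.2% with higher and 27.6% with lower values in PGRN KO. Cma1 and Tpsb2 were the mast cell markers tested, and both passed as higher. Cma1, at 0.620 to 0.932 FPKM in WT, entered the test through its PGRN KO values. The sum of 8 T and NK cell markers overlapped between genotypes, at 2.35 to 3.50 against 3.25 to 5.43 FPKM, and Trac, the 1 gene tested, did not pass. Cd3d, Cd3e, Cd4 and Cd8a were each higher in every PGRN KO library, whereas Trac, Cd3g, Ncr1 and Klrb1c overlapped. The margin was narrow for Cd3e, at 0 to 0.166 against 0.170 to 0.220 FPKM. The sum of 7 fibroblast and mesothelial markers, none of which was tested, was 1.096 to 1.18 against 2.04 to 3.65 FPKM. In this list Dcn, Col1a1, Col1a2 and Col3a1 were higher in every PGRN KO library, whereas the mesothelial markers Krt19, Msln and Upk3b overlapped between genotypes. The 8 neutrophil markers summed to 48.75 to 53.12 against 21.46 to 26.54 FPKM, nearly all of it S100a8, which passed as lower, with Ly6g, Elane and Cxcr2 at 0. No dendritic cell or eosinophil marker was tested. Dendritic cell markers summed to 1.84 to 2.27 against 1.1 to 1.46 FPKM with Cd209a at 0. Of these, Xcr1 and Flt3 were lower in every PGRN KO library. Zbtb46 overlapped, at 0.532 to 0.583 against 0.571 to 0.764 FPKM, as did Clec9a and Siglech. The 4 eosinophil markers summed to 0.0580 to 0.249 against 0.0177 to 0.0863 FPKM, which overlapped, with Epx and Prg2 at 0. Most markers of these other cell types were below the limit for testing, and no conclusion is drawn from separate groups among them. The part of these cell types in the level of Ptpn6 was not tested. In bulk samples fewer cells of a type and less RNA per cell cannot be told apart.

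Cblb (ENSMUSG00000022637, chromosome 16, 52031225 to 52208048), a ubiquitin ligase that limits signalling by tyrosine kinases, was at 6.898, 6.468 and 6.306 FPKM in WT and at 7.254, 7.059 and 4.833 FPKM in PGRN KO. As for Ptprc, replicates 4 and 5 of PGRN KO were above all WT libraries and replicate 6 below all of them. The log2 fold change was -0.05 ± 0.15 (SE, 95% interval -0.40 to 0.29) with a limma adjusted p of 0.823, and 0.11 with an adjusted p of 0.201 without replicate 6.

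**Figure D2:**
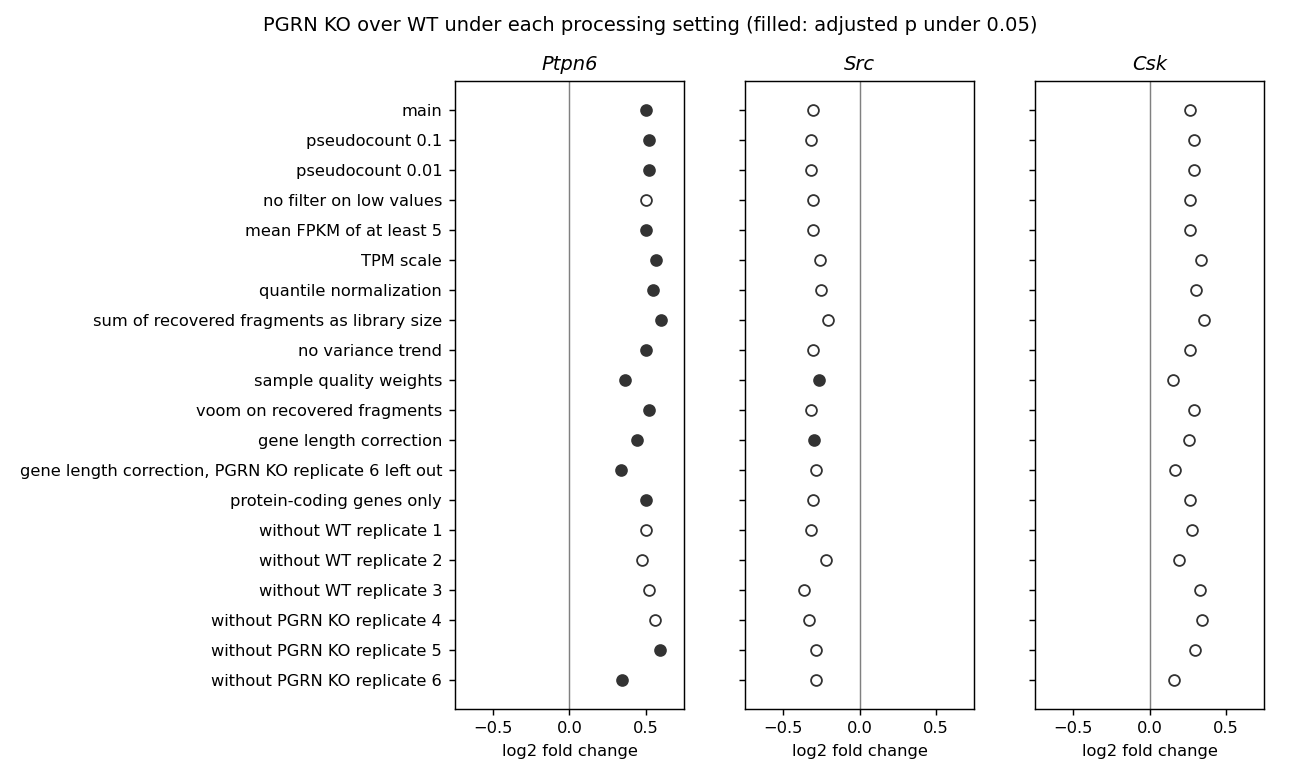
Log2 fold change of PGRN KO over WT (horizontal axis) for Ptpn6, Src and Csk under the main setting and 19 alternatives (rows); filled circles have a limma adjusted p under 0.05. Ptpn6 is to the right of 0 in every row and filled in the main setting and 14 alternatives, Src is to the left of 0 in every row and filled in 2, and Csk is to the right of 0 in every row and filled in none.

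The deviation of PGRN KO replicate 6 differed between the members. Compared with the mean of replicates 4 and 5 on the log2(FPKM + 1) scale, it was higher by 0.47 for Ptpn6, 0.32 for Csk and 0.24 for Fgr, whose gene models measure 2802, 3737 and 3863 bases. It was at -0.04 for Src, -0.11 for Lyn and -0.22 for Fyn, with gene models of 4371, 4073 and 4363 bases, and at -0.45 for Ptprc and -0.48 for Cblb, with 18313 and 10475 bases. Among these 8 genes the 3 shortest gene models were thus above and the 2 longest furthest below. After a correction of each library for gene length, Ptpn6 had a log2 fold change of 0.44 with an adjusted p of 0.0168 and Ptprc one of 0.19 with an adjusted p of 0.128. In that setting 2 of 8 members passed, Ptpn6 and Src, against 31.9% of all tested genes.

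**Figure D3:**
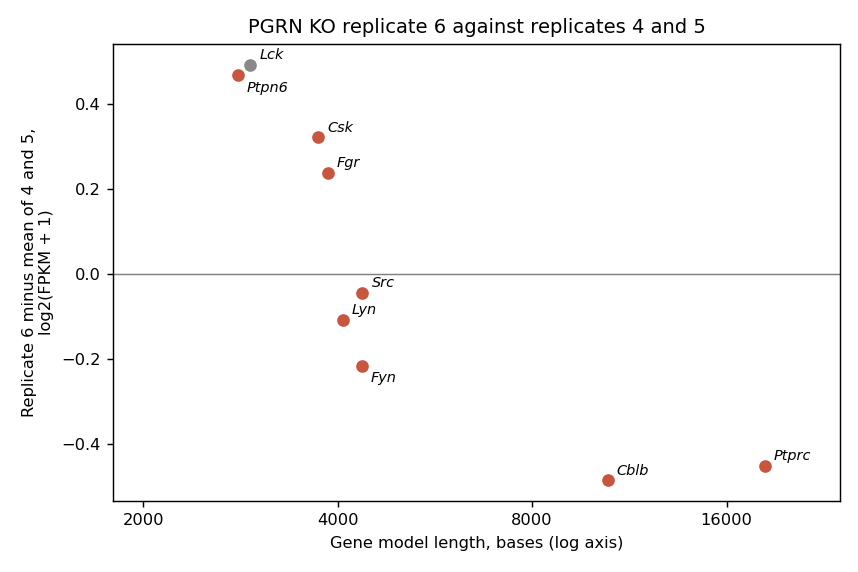
Difference between PGRN KO replicate 6 and the mean of replicates 4 and 5 on the log2(FPKM + 1) scale (vertical axis) against the length of the gene model in bases (horizontal axis, log scale) for the 8 tested members (red) and for Lck (grey). Lck, Ptpn6, Csk and Fgr, with up to 3863 bases, lie above 0, and the longer genes lie below.

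To compare the make-up of the member kinases between libraries, the FPKM of Src, Lyn, Fgr, Fyn and Yes1 were summed. The sum of the 5 kinases was 99.8 ± 5.30 FPKM in WT, compared with 93.7 ± 5.10 FPKM in PGRN KO (SD, n = 3 each), and the groups overlapped. Lyn made up 60.12%, 60.60% and 61.05% of it in WT and 63.98%, 62.86% and 63.16% in PGRN KO. Src made up 18.39%, 19.59% and 17.47% in WT and 15.50%, 15.59% and 16.17% in PGRN KO. The share of Lyn was thus higher and that of Src lower in every PGRN KO library, replicate 6 included. Fyn made up 16.7% ± 0.922 and 16.9% ± 0.883 of the sum, and Fgr 4.14% ± 0.174 and 3.93% ± 0.703, with overlapping groups. The shares add up to a fixed total and are given as a description, with no test.

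**Figure D4:**
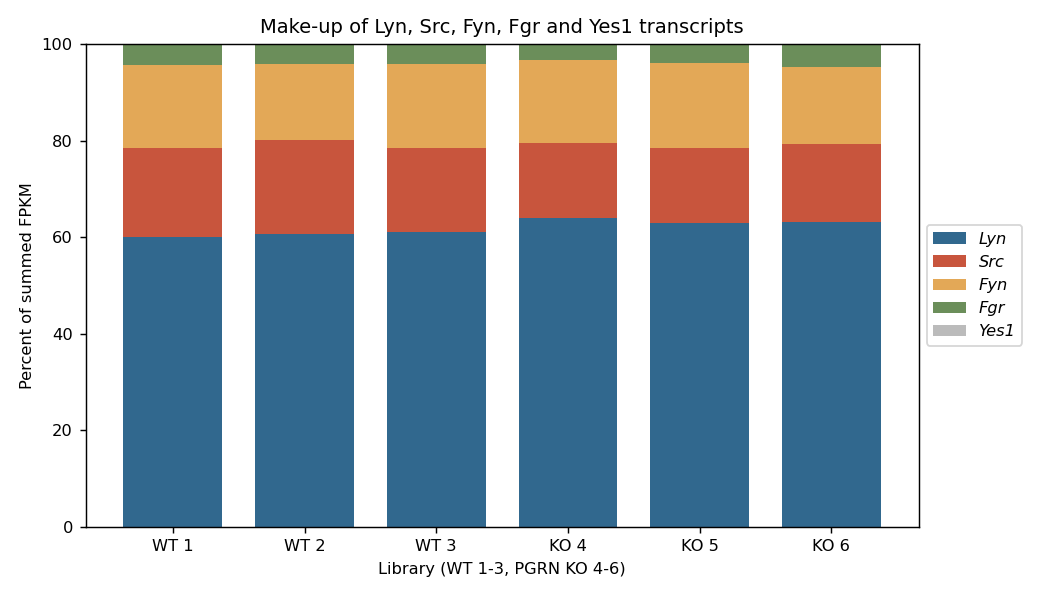
Share of each of the 5 member kinases in their summed FPKM (vertical axis, percent) in each library (horizontal axis); the segments of a bar add up to 100 percent. Lyn fills 60.12% to 61.05% of the WT bars and 62.86% to 63.98% of the PGRN KO bars, and the segment of Yes1 is too thin to be seen.

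Kinases of the family that are typical of lymphocytes were low. Lck, the kinase of T cells, was at 1.367, 1.362 and 1.287 FPKM in WT and at 1.577, 1.551 and 2.608 FPKM in PGRN KO. Its groups were separate, but the log2 fold change of 0.30 had a limma adjusted p of 0.186, and without replicate 6 it was 0.13 with an adjusted p of 0.228. Blk, the kinase of B cells, was below the limit for testing, with 46 fragments in the WT libraries together (exact Poisson 95% interval 33.7 to 61.4) and 110 in the PGRN KO libraries (90.4 to 133), intervals that cover counting error only. Single PGRN KO libraries held 20 to 51 fragments and single WT libraries 13 to 19. Its level overlapped between genotypes, at 0.267 to 0.421 against 0.392 to 1.09 FPKM. The part of T and B cells, whose markers are given above, in these values was not tested. Of the relatives Frk, Srms, Ptk6 and Matk, none reached a mean of 1 FPKM.

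Within a library, ratios between members do not depend on how libraries are scaled. A deviation that differs with gene length, as described for PGRN KO replicate 6, remains in them. The ratio of Csk to Src FPKM was 0.530, 0.401 and 0.613 in WT and 0.662, 0.755 and 0.930 in PGRN KO. The ratio of Lyn to Src was 3.27, 3.09 and 3.50 in WT and 4.13, 4.03 and 3.91 in PGRN KO. The ratio of Csk to the summed FPKM of the 5 member kinases was 0.0974, 0.0786 and 0.107 in WT and 0.1025, 0.118 and 0.150 in PGRN KO, and that of Ptpn6 to Csk was 2.14, 2.35 and 2.03 in WT and 2.62, 2.33 and 2.71 in PGRN KO. The ratio of Ptpn6 to Lyn was 0.347, 0.305 and 0.357 in WT and 0.419, 0.437 and 0.645 in PGRN KO, and that of Ptpn6 to Ptprc was 1.048, 0.967 and 1.230 in WT and 1.251, 1.232 and 2.412 in PGRN KO. Of these 6 ratios, those of Csk to the summed kinases and of Ptpn6 to Csk overlapped between genotypes. The other 4 were higher in every PGRN KO library, Ptpn6 to Ptprc by a narrow margin (1.232 against 1.230). All 6 ratios were chosen after the values of the single genes had been seen and are given as a description, with no test.

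Genes that surround the kinases in the pathway were counted next, in lists of other control genes, inhibitory receptors and substrates. The lists were chosen with earlier results of these data known, so their counts are a description only. Over all tested genes the median log2 fold change was -0.03, and 24.2% passed. Of 21 other phosphatases, adaptors and ligases that act on Src family kinases, 18 were tested, 0 passed as higher and 2 as lower, with a median log2 fold change of -0.03. The 2 were Ptpn2 and Ptpn12, both non-receptor tyrosine phosphatases. Ptpn2 fell from 30.6 ± 2.28 to 22.7 ± 0.790 FPKM at a log2 fold change of -0.42 ± 0.09 (SE; limma adjusted p = 0.0187). Ptpn12, known to act on focal adhesion proteins, fell from 74.0 ± 2.73 to 58.2 ± 5.73 FPKM (adjusted p = 0.0483), and passed in 7 of 19 alternatives. Without PGRN KO replicate 6, 8 of the 18 passed, 3 as higher and 5 as lower, against 41.3% of all tested genes.

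The second list holds 13 genes, mostly inhibitory receptors whose tails Src family kinases phosphorylate and to which Ptpn6 can bind. Of the 12 tested, 1 passed as higher and 7 as lower, together 66.7%, against 10.4% and 13.8% of all tested genes, together 24.2%. The median log2 fold change of this list was -0.37. Clec12a, an inhibitory C-type lectin, was at 7.201, 6.862 and 6.767 FPKM in WT and at 2.204, 2.236 and 2.512 FPKM in PGRN KO, with a log2 fold change of -1.26 ± 0.09 (SE; limma adjusted p = 0.00119). The groups were far apart. Cd300lf, an inhibitory receptor for lipids, was the one that rose, from 2.73 ± 0.230 to 9.07 ± 0.785 FPKM at a log2 fold change of 1.43 ± 0.10 (SE; limma adjusted p = 0.00119). Cd33, a receptor for sialic acids whose mouse form lacks the classical inhibitory motif, fell from 14.0 ± 0.751 to 8.32 ± 1.08 FPKM (adjusted p = 0.00731). Clec12a passed in all 18 alternatives in which it was tested, and Cd300lf and Cd33 passed in all 19.

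The other receptors of this list that passed were lower by smaller amounts. Sirpa, the receptor for CD47, fell from 93.3 ± 1.22 to 74.2 ± 0.696 FPKM, and Pirb, which binds class I molecules, from 24.6 ± 0.342 to 18.2 ± 1.88 FPKM. Pilra fell from 49.0 ± 2.48 to 36.2 ± 2.996 FPKM, and Lair1, a receptor for collagen, from 3.59 ± 0.225 to 2.18 ± 0.350 FPKM. Siglece, another receptor for sialic acids, fell from 1.78 ± 0.491 to 0.698 ± 0.173 FPKM and met the limit for testing only through its WT values. Their limma adjusted p lay between 0.0161 and 0.0252.

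The third list holds 25 substrates and adaptors downstream of the kinases. Of the 21 tested, 2 passed as higher and 8 as lower, together 47.6%, against 10.4% and 13.8% of all tested genes, together 24.2%. The median log2 fold change of this list was -0.31. Vav1, an exchange factor that activates Rac, was at 55.38, 53.83 and 57.99 FPKM in WT and at 25.21, 24.61 and 27.99 FPKM in PGRN KO, with a log2 fold change of -1.08 ± 0.09 (SE; limma adjusted p = 0.00119). The levels in PGRN KO were below those in WT in every library by a wide margin. Plcg2, the phospholipase that acts after Syk, fell from 18.8 ± 0.559 to 11.03 ± 0.755 FPKM (adjusted p = 0.00309). Pxn, which encodes the adhesion protein paxillin, fell from 26.1 ± 0.707 to 17.0 ± 0.706 FPKM (adjusted p = 0.00450). These 3 genes passed in all 19 alternatives.

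Syk, which Src family kinases phosphorylate and which binds to the activation motifs, was at 87.93, 89.37 and 88.02 FPKM in WT and at 67.85, 68.27 and 54.02 FPKM in PGRN KO. The groups were separate, with replicate 6 the lowest. The fitted difference was -0.48 ± 0.11 on the log2 scale (SE; limma adjusted p = 0.0239), and it passed in 12 of 19 alternatives. Without replicate 6 it was -0.37. Vav3, related to Vav1, fell from 4.41 ± 0.282 to 2.71 ± 0.743 FPKM, and Skap2, an adaptor of integrin signalling, from 17.4 ± 0.599 to 12.4 ± 0.582 FPKM. Ptk2b, the kinase Pyk2, fell from 40.3 ± 0.206 to 32.3 ± 1.68 FPKM, and the adaptor gene Sh2b3 from 9.35 ± 0.287 to 6.12 ± 0.818 FPKM. Their adjusted p lay between 0.0102 and 0.0405. The 2 that rose were kinase genes: Ptk2, which encodes focal adhesion kinase, from 0.991 ± 0.0594 to 1.79 ± 0.0894 FPKM (adjusted p 0.0106), and Btk, a kinase of B cells and myeloid cells, from 4.82 ± 0.161 to 6.14 ± 0.117 FPKM (adjusted p 0.0373). Ptk2, with a WT mean below 1 FPKM, met the limit for testing only through its PGRN KO values. The part of B cells in the level of Btk was not tested.

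**Figure D5:**
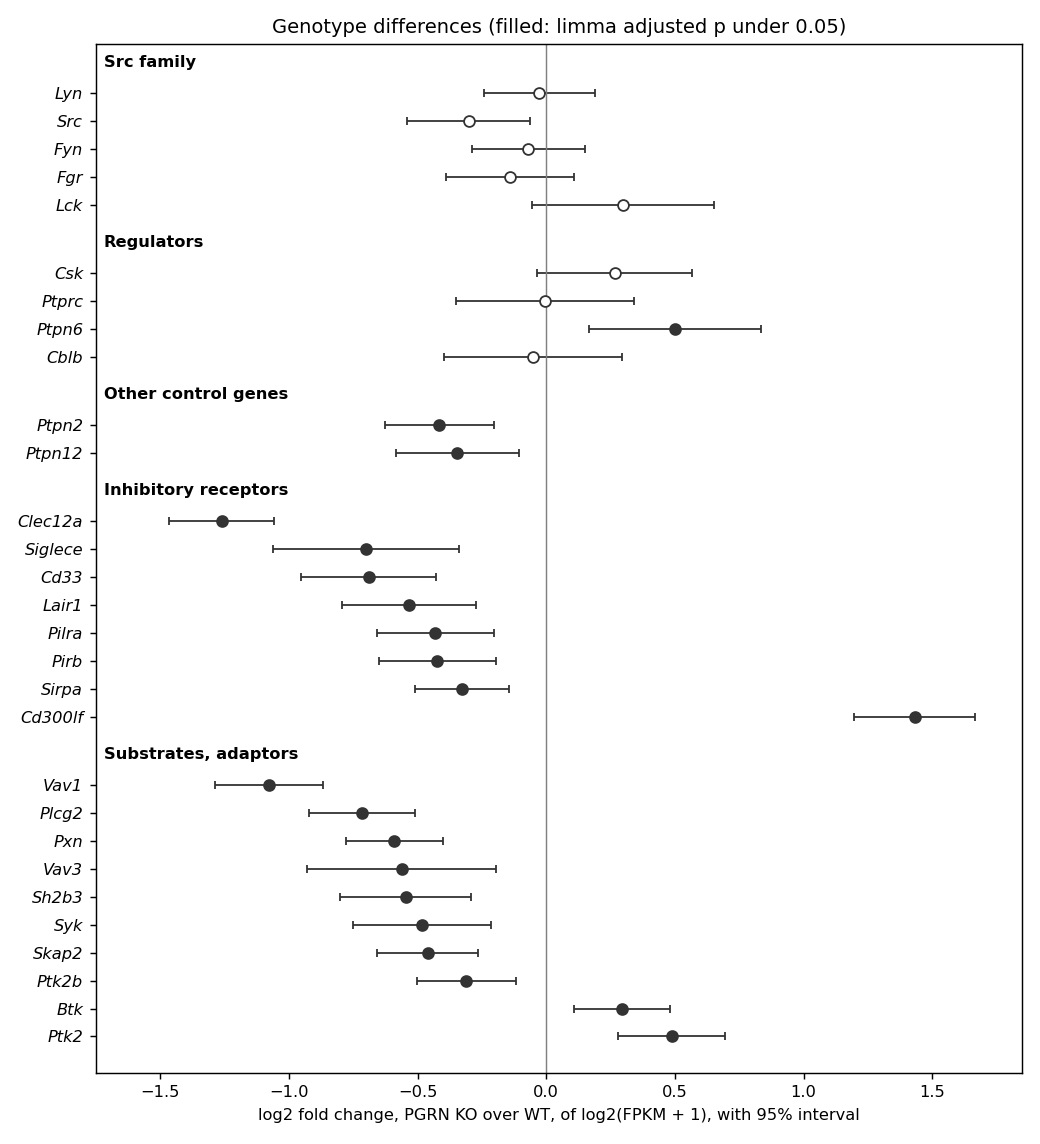
Log2 fold change of PGRN KO over WT on the log2(FPKM + 1) scale (horizontal axis) with its 95% interval from limma, for the tested member kinases, Lck and the member regulators, shown whatever their value, and for those genes of the 3 pathway lists that passed; filled circles have an adjusted p under 0.05. Among Lyn, Src, Fyn, Fgr, Lck and the regulators only Ptpn6 (0.50) is filled, and all 20 genes of the pathway lists are filled because they were chosen for passing. The largest differences are those of Clec12a (-1.26), Vav1 (-1.08) and Cd300lf (1.43).

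Without PGRN KO replicate 6, 9 of the 12 tested genes of the receptor list and 15 of the 21 tested substrates and adaptors passed, against 41.3% of all tested genes. All 20 named genes of the 3 lists kept the call in that setting, with a log2 fold change of -0.40 against -0.56 for Vav3 and -0.26 against -0.35 for Ptpn12. The direction of the 20 named genes of these lists was the same in every alternative. Clec12a, Cd300lf, Cd33, Vav1, Plcg2 and Pxn kept the call in every alternative in which they were tested, and the other 14 lost it in 2 to 12 of them. Leaving out WT replicate 1, 2 or 3 ended 14, 13 and 11 of these calls and leaving out PGRN KO replicate 4 or 5 ended 7 and 9, with limma adjusted p between 0.051 and 0.18. The calls also depended on scaling and filtering, with 10 lost on a TPM scale (adjusted p up to 0.216), 7 with summed fragments as library size, 5 without a filter and 4 with quantile normalization, and Syk was among those lost in each of these settings. These lists are described by their counts, and no test of the lists was made.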

How the data were processed

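RNA from 3 WT and 3 PGRN KO macrophage libraries was selected by poly-T beads and sequenced as paired ends. Per the labels' processing notes, the authors used HISAT2 2.0.5, featureCounts 1.5.0-p3 and DESeq2 1.20.0 on GRCm38, whereas the text of the study names other versions and HTSeq, and strand is not given. The deposited values are FPKM per gene, divided by library sizes that already hold size factors. Fragments were recovered as whole multiples of 1 step (tolerance 0.001 of a step), which gave the depths above. Columns of annotation gave the names, gene coordinates, gene model lengths and gene types used here.

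Values were analysed as log2(FPKM + 1), which understates the change of low genes, for genes with a mean of at least 1 FPKM, with limma 3.58.1 in R 4.3.3 (variance trend, no covariates, two-sided, Benjamini-Hochberg over 8882 genes, threshold 0.05), tested on simulated data. An exact two-sided permutation test was run for each member. The 19 alternatives were pseudocounts of 0.1 and 0.01, no filter, a mean FPKM of at least 5, a TPM scale, quantile normalization, summed fragments as library size, no trend, quality weights, voom on fragments, a loess correction for gene length (span 0.5) with and without PGRN KO replicate 6, protein-coding genes and leaving out each library. Named genes were Grn, the members, Lck, Blk and list genes that passed. A result for 1 further gene is not reported here. The members and lists were chosen with earlier results of these data known. Coding sequences and their coordinates are from the GENCODE annotation of GRCm38, in which the members have the same gene coordinates.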

Additional observations from a re-analysis of the deposited data

How the results depend on the processing

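Of the 19 alternatives, none turned the direction of Ptpn6, Src, Csk, Fgr, Lck or a named list gene. The number of members that passed was 1 (higher 1, lower 0). It was 0 without a filter on low values, 3 with quality weights (2 lower, Src and Fgr), 2 after the length correction (1 lower, Src), and 0 to 1 when a library was left out. Over all genes 2151 passed (921 higher, 1230 lower). This number was 1366 (603 higher, 763 lower) without a filter, for which more genes were tested, 4225 (1757 higher, 2468 lower) with quality weights and 3693 (1460 higher, 2233 lower) after the length correction without PGRN KO replicate 6. It was 713 to 3668 (331 to 1438 higher, 382 to 2230 lower) when a library was left out, the lowest without WT replicate 1 and the highest without PGRN KO replicate 6. With a mean FPKM of at least 5, for which fewer genes were tested, 529 were higher. The split of directions depended on scaling, with 911 higher and 593 lower on a TPM scale and 1179 higher and 695 lower with summed fragments. Where no value is given for a change, the cause was not tested.

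Log2 fold changes near 0 turned their sign without passing the threshold. Lyn was at 0.0276 on a TPM scale, 0.0294 with quantile normalization, 0.072 with summed fragments, 0.0352 with quality weights, 0.0135 after the length correction without PGRN KO replicate 6, and -0.0753 to 0.0162 when a library was left out. Fyn was at 0.0251 with summed fragments, 0.00256 with quality weights, 0.00303 after the length correction without replicate 6, and -0.120 to 0.00279 when a library was left out. Ptprc was at 0.0496 on a TPM scale, 0.0494 with quantile normalization, 0.0915 with summed fragments, 0.12 with quality weights, 0.19 after the length correction, 0.14 after it without replicate 6, and -0.0894 to 0.146 when a library was left out. Cblb was at 0.00508 with quantile normalization, 0.0370 with summed fragments, 0.0716 with quality weights, 0.10 after the length correction, 0.14 after it without replicate 6, and -0.14 to 0.11 when a library was left out.

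No paired analysis was made, because no source used here states a pairing between WT and PGRN KO samples. With 3 libraries per genotype the exact test cannot go below 0.1, and the 95% interval of a tested member spans 0.43 to 0.69 on the log2 scale. Levels of transcripts do not give the phosphorylation of the kinases.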
